A study of Mus musculus with 32 samples.

Results

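HNF4A ChIP-seq peaks of jejunal intestinal epithelial cells (IECs) were merged across 8 libraries wherever they shared at least 1 bp, and 3445 of the 45552 merged sites (7.56%) held a peak in every library. These 3445 sites are called the shared sites below. They are set against the 19604 sites with a peak in all 4 libraries of one condition, GF+HFM, and in fewer than 4 libraries of the other, CV+HFM. Membership was chosen by measured peak calls, so that the calls themselves and the size of the set are a description and not a finding. The 8 libraries came from male C57BL/6J mice of 10 to 12 weeks. GF+HFM mice were germ-free, and CV+HFM mice were ex-germ-free animals colonized with a conventional microbiota for 14 days. Both groups of 4 received the high-fat meal (HFM), a gavage of chicken egg yolk emulsion, and were killed 2 hours later, so that no library used here lacks the meal. The antibody, mouse anti-HNF4A, was the same in all. The jejunal preparations were not sorted, and a site occupied in fewer cells cannot be told apart from one with less HNF4A per cell.

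HNF4A is a nuclear receptor that binds DNA as a homodimer and sits at enhancers and promoters of enterocyte genes. Its recognition sequence is a variant of the direct repeat with a single spacer base (DR1) that many nuclear receptors, among them the PPAR:RXR dimers that respond to fatty acids, also recognize. In the small intestine it is known for maintaining the brush border, lipid absorption and the assembly of chylomicrons, the particles that carry dietary triglyceride out of the enterocyte.

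Windows of 200 bases around the centre of a site, read from the plus strand of the NCBIM37 (mm9) reference, show what these sites look like. Site centres were placed from GF+HFM peaks only. The first 4 windows come from shared sites near genes of lipid handling and the clock that hold the HNF4 letters CAAAGTCCA on either strand, here in capitals. They were picked after the values were seen. Npas2 encodes a clock transcription factor, Ehhadh a peroxisomal enzyme of fatty acid oxidation, Mogat2 the monoacylglycerol acyltransferase that rebuilds dietary triglyceride, and Apoa4 an apolipoprotein of chylomicrons.
Npas2, chr1:39243956-39244155: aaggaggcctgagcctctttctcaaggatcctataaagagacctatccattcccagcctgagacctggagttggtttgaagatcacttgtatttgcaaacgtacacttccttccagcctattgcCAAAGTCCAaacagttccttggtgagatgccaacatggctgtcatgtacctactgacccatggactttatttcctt
Ehhadh, chr16:21788246-21788445: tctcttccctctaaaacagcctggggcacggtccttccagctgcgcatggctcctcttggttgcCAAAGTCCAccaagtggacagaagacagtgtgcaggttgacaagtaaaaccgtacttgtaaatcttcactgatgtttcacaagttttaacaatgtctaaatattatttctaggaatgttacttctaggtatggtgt
Mogat2, chr7:106373224-106373423: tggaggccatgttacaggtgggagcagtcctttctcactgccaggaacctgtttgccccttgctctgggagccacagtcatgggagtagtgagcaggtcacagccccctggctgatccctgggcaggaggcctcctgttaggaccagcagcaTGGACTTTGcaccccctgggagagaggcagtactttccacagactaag
Apoa4, chr9:46049995-46050194: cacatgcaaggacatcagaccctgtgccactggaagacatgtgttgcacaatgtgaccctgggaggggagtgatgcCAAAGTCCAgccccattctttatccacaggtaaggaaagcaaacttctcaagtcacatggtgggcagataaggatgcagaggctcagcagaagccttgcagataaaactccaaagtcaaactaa
The next 2 windows belong to a pair of shared sites, in capitals the match to DR1, AGGTCANAGGTCA, at 2 or fewer mismatches on either strand. They lie in introns, with Tmem181a and Gm17692 the nearest genes. They are named here after the nearest gene starts, those of Dynlt1a and Dynlt1b, neighbouring genes for a dynein light chain, 17.0 and 16.2 kb away. The Dynlt1a window matched the opposite strand of the ground around the Dynlt1b site at 199 of 200 bases (99.5%). The printed windows are placed a little apart on the copies, so they do not begin and end at the same base. Reads of 50 bases from one copy can seldom be told from those of the other there, so the values of both sites are uncertain.
Dynlt1a, chr17:6300358-6300557: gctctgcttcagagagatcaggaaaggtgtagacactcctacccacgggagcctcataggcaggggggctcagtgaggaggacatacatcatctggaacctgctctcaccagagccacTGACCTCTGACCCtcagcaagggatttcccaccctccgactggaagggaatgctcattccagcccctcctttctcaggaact
Dynlt1b, chr17:6445361-6445560: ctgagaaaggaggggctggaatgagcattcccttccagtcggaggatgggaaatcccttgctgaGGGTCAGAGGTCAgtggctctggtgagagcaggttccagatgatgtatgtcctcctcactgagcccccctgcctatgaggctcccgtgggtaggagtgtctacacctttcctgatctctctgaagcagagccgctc
The last window is from a comparison site that was called in all 4 GF+HFM lists and in no CV+HFM list. This site is named after the nearest gene start, that of the keratin gene Krt15, 4.66 kb away. The nearest gene is Krt19. Capitals mark the DR1 match of the site.
Krt15, chr11:100001826-100002025: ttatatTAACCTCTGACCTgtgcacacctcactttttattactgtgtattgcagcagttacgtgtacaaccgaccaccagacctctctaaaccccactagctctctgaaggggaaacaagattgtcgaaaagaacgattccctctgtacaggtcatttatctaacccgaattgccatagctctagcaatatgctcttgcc

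The lists differed widely in size, and 1 library fixed most of the membership. GF+HFM lists held 31061 to 36846 peaks. CV+HFM lists held 29345, 9206, 21033 and 4533 peaks in replicates 1 to 4, so replicates 2 and 4 stood apart. Reads per library were not in the files and the depth is unknown. Shared sites made up 9.90% to 11.8% of the sites of a GF+HFM list. In the CV+HFM lists they made up 12.4%, 39.4%, 17.5% and 84.3% of sites. Just outside the set, 5369 sites were called in exactly 7 lists. The missing list was CV+HFM replicate 4 at 4930 of these, CV+HFM replicate 2 at 422, CV+HFM replicate 3 at 14, and CV+HFM replicate 1 or GF+HFM replicate 3 or 4 at 1 each. Without replicate 4 of CV+HFM 8375 sites were called in all remaining lists, and without both short CV+HFM lists 17316 were. The reverse case was rare, with 5 sites called in all 4 CV+HFM lists and fewer than 4 GF+HFM lists.

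Width, the only measure of size in the files, set the shared sites apart within each list. Median width at the shared sites was 609, 513, 731 and 843 bp in GF+HFM replicates 1 to 4, against 295, 280, 381 and 434 bp over the other peaks of these lists. In CV+HFM replicates 1 to 4 the medians were 542, 235, 423 and 124 bp, against 299, 163, 254 and 68 bp over the other peaks. Shared sites were thus broader than the rest in all 8 lists, a difference that the rule itself favours and that is not tested. At the edge of the set, the percentile of width, averaged over GF+HFM lists, had a median of 86.7 at shared sites and 73.9 at sites missed by 1 CV+HFM list. It was 30.7 at sites in no CV+HFM list. In CV+HFM replicate 4, 234 of the shared sites had a peak of 52 bp, the narrowest that list contains.

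**Figure D1:**
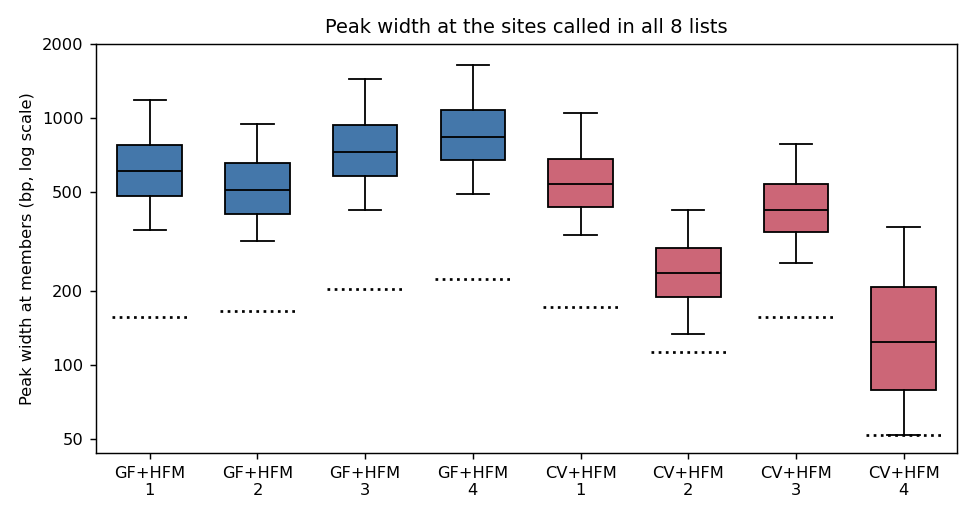
Peak width in bp (log scale) at the 3445 shared sites in each library, with boxes for quartiles, whiskers for the 5th and 95th percentiles and dotted lines for the narrowest peak of the list. CV+HFM medians ran from 124 to 542 bp and GF+HFM medians from 513 to 843 bp, and the box of CV+HFM replicate 4 lies close to its list's minimum.

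Peaks at the shared sites were narrower in CV+HFM on average, but the groups overlapped. The mean of the library medians was 331 ± 187 bp in CV+HFM and 674 ± 144 bp in GF+HFM (SD, n = 4 libraries each). The difference of -343 bp missed the threshold (exact permutation test over 70 relabellings, two-sided, p = 0.0571, where the smallest possible is 2 in 70), because CV+HFM replicate 1 at 542 bp exceeded GF+HFM replicate 2 at 513 bp. Without CV+HFM replicate 1 the difference was -413 bp (exact permutation p = 0.029). With any other single library left out it missed the threshold, at exact permutation p of 0.0571 to 0.0857. The narrowest peak of a list measured 157, 165, 204 and 223 bp in GF+HFM replicates 1 to 4 and 171, 113, 156 and 52 bp in those of CV+HFM. The groups overlapped in it, CV+HFM replicate 1 lying above GF+HFM replicates 1 and 2, and the difference was not tested. Divided by that value the library medians were 3.88, 3.11, 3.58 and 3.78 in GF+HFM and 3.17, 2.08, 2.71 and 2.38 in CV+HFM (exact permutation p = 0.0571). The part that list size had in these widths was not tested. The order of widths over the 3445 sites was shared unevenly. Across sites, Spearman's rho was 0.592 to 0.779 between pairs of GF+HFM libraries and 0.232 to 0.719 between pairs of CV+HFM libraries.

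Shared sites were mostly distal, as were the comparison sites, and whether the share at gene starts differed depended on how it was counted. Of 3440 shared sites on chromosomes 1 to 19, X and Y, 447 (13.0%, Wilson 95% interval 11.9 to 14.2) had their centre within 1 kb of the start of a protein-coding gene. Among 19583 comparison sites 2352 did (12.0%, 11.6 to 12.5). The difference of 0.984 percentage points had an interval of -0.193 to 2.23. Across all merged sites the share was 14.2%. All such intervals cover the counting of sites only, and neighbouring sites are not independent. With the number of CV+HFM lists calling a site rising from 0 to 4, the share was 14.7%, 12.5%, 10.4%, 13.6% and 13.0%, lowest at sites in 2 lists and with no steady order. With the start of any transcript in place of one start for each gene the difference was 1.65 points (0.352 to 3.01), and with any overlap of a site with the 1 kb window it was 2.13 points (0.850 to 3.48). The difference also changed with the lists used. Without GF+HFM replicate 2 it was 1.30 points (0.131 to 2.54). Without CV+HFM replicate 4 it was 2.29 points (1.40 to 3.19), and without replicates 2 and 4 it was -1.35 points (-2.36 to -0.363).

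The same question was asked library by library, which makes the mouse the replicate. Among sites called in all 4 GF+HFM lists, the gene-start share was 12.1% where CV+HFM replicate 1 had a peak and 12.9% where it had none. In replicate 2 the shares were 13.7% and 11.2%, in replicate 3 11.7% and 13.7%, and in replicate 4 12.5% and 12.1%. Called sites were thus richer in gene starts in 2 of 4 CV+HFM libraries and poorer in the other 2. The mean difference was 0.049 ± 1.91 points (SD, n = 4; exact sign-flip permutation test, two-sided, p = 1, smallest possible 2 in 16). The same difference for each GF+HFM library, over sites called in the other 3, was 4.07, 1.53, -9.40 and -9.39 points, a wider spread than in CV+HFM. Whole lists showed no difference beyond their spread either. Gene starts took 15.1%, 13.6%, 12.6% and 12.3% of peaks in GF+HFM and 12.5%, 13.9%, 12.1% and 12.1% in CV+HFM, a difference of -0.744 points (exact permutation p = 0.400, n = 4 libraries each).

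Farther from gene starts the sets differed. The median distance to a protein-coding gene start was 13.7 kb at shared sites (quartiles 3.71 and 36.7 kb) and 16.9 kb at comparison sites (4.53 and 47.7 kb). Sites 1 to 5 kb from a start made up 17.1% of shared and 14.4% of comparison sites, a difference of 2.69 points (1.38 to 4.08). Sites more than 50 kb away made up 19.4% and 23.8%, a difference of -4.42 points (-5.84 to -2.94). The difference beyond 50 kb was smaller in size within quartiles of width. In the widest quartile of sites called in all 4 GF+HFM lists, which held 70.6% of the shared and 17.0% of the comparison sites, 18.4% and 20.8% lay beyond 50 kb, a difference of -2.41 points (-4.46 to -0.325). In the quartiles from narrowest upward the differences were 4.04 (-11.5 to 26.0), -2.82 (-8.10 to 3.50) and -0.820 points (-3.79 to 2.39), with intervals that include 0. In the widest quartile the gene-start shares were 13.6% and 14.4%, a difference of -0.817 points (-2.62 to 1.01).

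Within genes, shared sites were somewhat less often intronic. Introns held 43.4% of shared and 46.5% of comparison sites, a difference of -3.12 points (-4.91 to -1.32), and in the widest quartile the difference was -3.07 points (-5.65 to -0.477). First introns alone took 15.6% of both sets. Coding exons held 2.01% and 1.68%, untranslated or non-coding exons 3.58% and 3.13%, and the ground between genes 38.0% and 36.7%, with intervals of the difference that included 0 in each case. In the widest quartile the ground between genes held 38.9% and 35.5%, a difference of 3.34 points (0.813 to 5.87). The X chromosome stood out among chromosomes. It carried 7 of the shared sites and 246 of the comparison sites, 0.203% and 1.26% of each set. Shared sites were 2.77% of the sites on X that all 4 GF+HFM lists called, against 12.4% to 17.0% on the autosomes. The 7 lay near Maob, Xiap, Zdhhc9, Pja1, Timm8a1, Prps1 and Gm8817, named after their positions were seen. All mice were male and carry a single X, and its part in this was not tested.

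**Figure D2:**
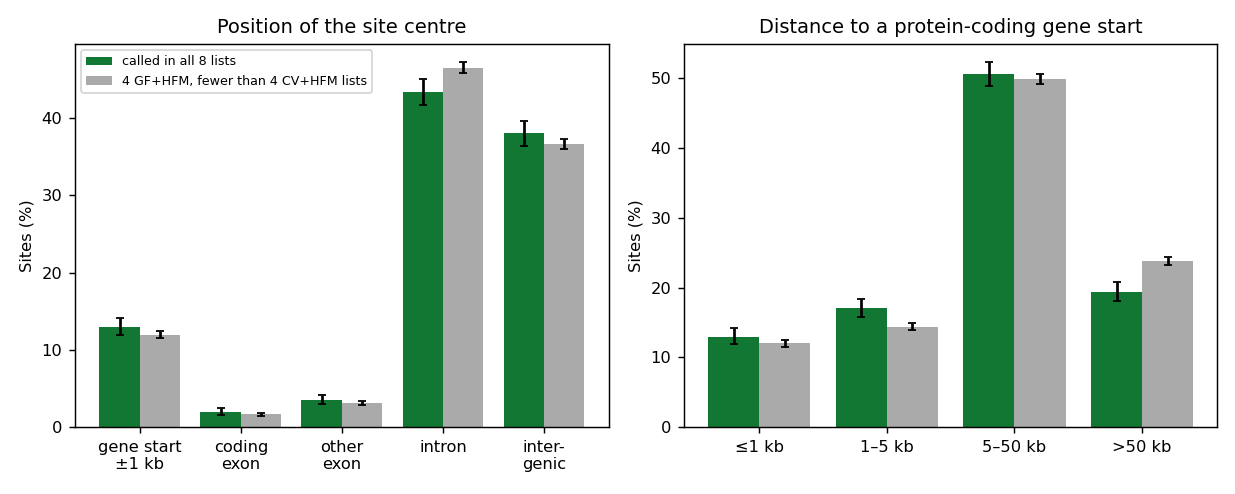
Share of shared (green, n = 3440) and comparison (grey, n = 19583) sites by position of the centre (left) and by distance to the nearest protein-coding gene start (right), in percent, with Wilson 95% intervals. Bars at gene starts are 13.0% and 12.0%, while beyond 50 kb they are 19.4% and 23.8%.

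Sequence, which played no part in choosing the sites, differed between the sets. The letters CAAAGTCCA lay within the central 200 bp, on either strand, of 358 shared sites (10.4%, 9.43 to 11.5) and 1160 comparison sites (5.92%, 5.60 to 6.26). The difference was 4.48 points (3.45 to 5.60), and 5.41% of all merged sites held the letters. In windows of the same length 1000 bp to either side, 0.218% and 0.304% did. Of the matches within 1000 bp of a centre, 60.6% at shared and 63.0% at comparison sites fell within 100 bp. The excess was present at gene starts, in introns and between genes, and exons were not examined separately. At gene starts the shares were 6.49% and 2.47%, in introns 10.6% and 6.16%, and between genes 11.6% and 6.69%, as in the Apoa4 and Npas2 windows printed above.

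The contrast was present in each quartile of width, and with all 8 lists it was larger where GF+HFM peaks were narrow. Within a quartile the widths of the sets can still differ. Sites called in all 4 GF+HFM lists were divided into quartiles of their mean GF+HFM width percentile, an arrangement chosen after the data were seen. Among the widest, 7.58% of 2429 shared and 3.78% of 3330 comparison sites held the HNF4 letters. In the third quartile 14.3% of 790 and 5.92% of 4969 sites did. In the second it was 25.9% of 201 and 6.28% of 5553. In the narrowest it was 45.0% of 20 shared sites, or 9 sites, against 6.82% of 5731. The interval of the difference lay above 0 in all 4 quartiles. Without CV+HFM replicate 4 it did so too, and the shares at sites in all 7 other lists were 12.4%, 11.1%, 8.71% and 6.34% from the narrowest quartile to the widest, against 6.65%, 5.95%, 5.65% and 2.67%. The differences were then 5.77, 5.16, 3.05 and 3.66 points, without the steep rise toward narrow peaks. Allowing 1 mismatch, 42.0% of shared and 34.8% of comparison sites matched.

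Which list called a site bore on this share in the same direction in all 4 CV+HFM libraries. Among sites called in all 4 GF+HFM lists, the HNF4 letters were in 6.78% of those with a peak and 4.53% of those without a peak in CV+HFM replicate 1. The pairs were 8.05% and 5.73% in replicate 2, 6.76% and 5.99% in replicate 3, and 10.5% and 5.80% in replicate 4, the shortest list. The mean difference was 2.51 ± 1.61 points (SD, n = 4, exact sign-flip permutation test, the smallest p this design allows, 2 in 16). For the GF+HFM libraries, over sites called in the other 3, it was -2.43, 2.68, 0.662 and 2.00 points. Without CV+HFM replicate 4 the excess at shared over comparison sites was 2.15 points (1.46 to 2.85), and without replicates 2 and 4 it was 1.01 points (0.277 to 1.71).

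Other motifs moved less or the other way. DR1 at 2 or fewer mismatches, which overlaps the HNF4 letters in part, was found in 12.9% of shared and 15.2% of comparison sites, a difference of -2.28 points (-3.47 to -1.02). It was in 13.7% of all merged sites. In the narrowest and second quartiles of width the DR1 difference was -1.86 (-11.7 to 19.2) and -3.31 points (-7.38 to 2.12). It was 1.27 points (-1.34 to 4.17) in the third and 0.885 points (-0.764 to 2.57) in the widest. All 4 of these intervals included 0. The GATA letters AGATAA were in 14.7% and 17.0% (difference -2.31 points, -3.57 to -0.986, all merged sites 16.3%), but 14.5% of each set had them in the widest quartile. The AP-1 letters TGANTCA were in 8.78% and 11.4% (difference -2.63 points, -3.64 to -1.54, all sites 10.9%), and the CDX letters TTTATNG in 9.83% and 11.2% (difference -1.33 points, -2.38 to -0.200, all sites 10.7%). In the widest quartile the AP-1 difference was -1.20 points (-2.65 to 0.276) and the CDX difference -1.74 points (-3.29 to -0.166). ETS (CCGGAAG) and SP/KLF (GGGCGG) letters were in 2.50% and 9.33% of shared sites and in 2.07% and 8.35% of comparison sites, with both intervals including 0, and in 2.47% and 10.0% of all sites. GC content was 50.6 ± 7.31% in shared and 49.2 ± 7.46% in comparison windows (SD over sites). A match of letters is a description and not a measured binding site.

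**Figure D3:**
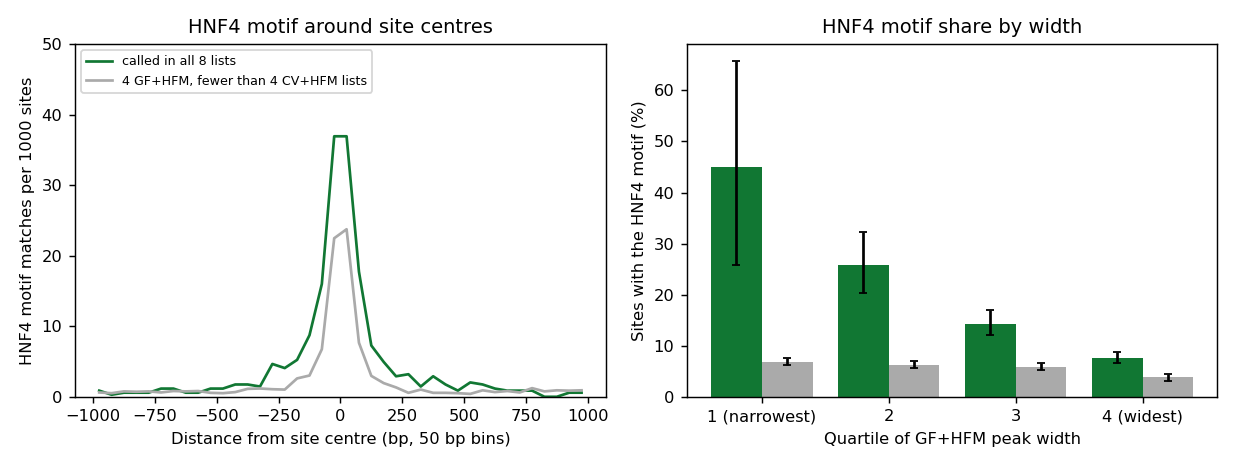
Left, matches to the HNF4 letters per 1000 sites in 50 bp bins by distance in bp from the site centre, for shared (green) and comparison (grey) sites. Right, percent of sites with the letters in the central 200 bp, by quartile of GF+HFM peak width, with Wilson 95% intervals, from 45.0% to 7.58% in shared and 6.82% to 3.78% in comparison sites.

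**Figure D4:**
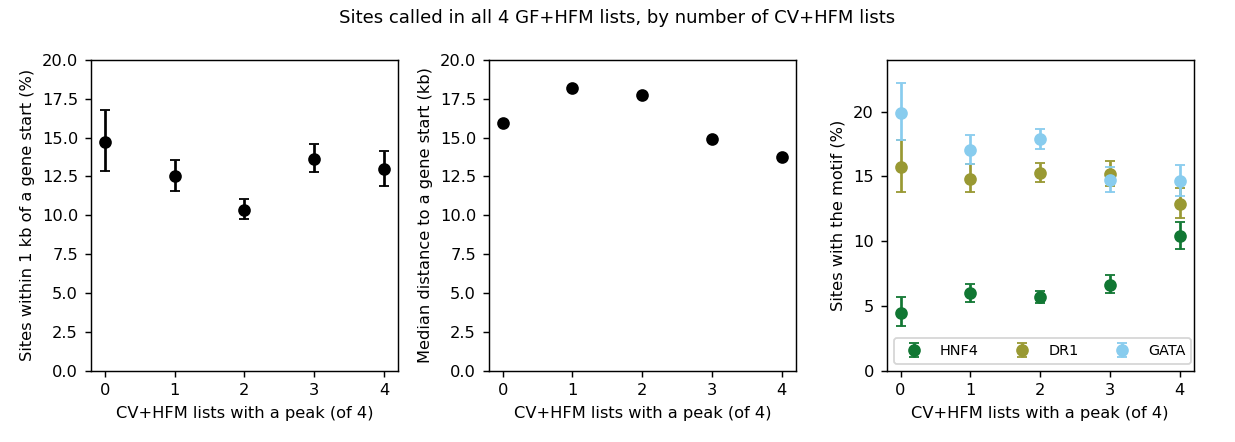
Sites called in all 4 GF+HFM lists, by the number of CV+HFM lists with a peak, with the share at gene starts in percent (left), the median distance to a gene start in kb (middle) and the share with each motif in percent (right), bars for Wilson 95% intervals. Gene-start shares have no steady order, and the HNF4 shares at 0 to 4 lists are 4.42%, 5.97%, 5.67%, 6.66% and 10.4%.

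Gene content was read from the gene nearest to each site. Of the 3440 placed sites 2978 had a protein-coding gene nearest and 462 a gene of another type. The 2978 fell to 2239 of 22380 protein-coding genes (10.0%), where comparison sites reached 32.6% of genes and all merged sites 49.4%. The median over all genes was 0 shared sites, 525 genes had at least 2, and 10 had at least 5. Of sites called in all 4 GF+HFM lists with a protein-coding gene nearest, 14.9% were shared sites, the value to set beside each gene list below. Of the 7779 protein-coding genes nearest to such a site, 28.8% were nearest to a shared site. The lists were chosen with earlier results known and their counts carry no test. The genes with the most shared sites were Gm20388 with 24 and Fgfr2 with 8, beside 92 and 36 comparison sites, but their models span 4.43 and 3.01 Mb in this annotation and take in many neighbours. Next came Ttc7b with 6, followed by Fblim1, Fut8, Mogat2, Asap2, 4933407C03Rik, Bcar3 and Itpk1 with 5 each. Comparison sites near these ran from 3 at Fblim1 to 17 at Itpk1. The Mogat2 model spans 19.5 kb. Shared sites lay a median of 50.8 kb from the next, and 700 (20.3%) lay within 10 kb of another.

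Genes of lipid export had many shared sites nearby. Of 20 genes for chylomicrons and apolipoproteins 13 (65.0%) were nearest to a shared site, 3 only to a comparison site and 4 to neither. Shared sites were 24 of their 66 GF+HFM sites (36.4%). Mogat2 had 5 and Creb3l3, a transcription factor of lipid metabolism, 3. Apob and Mttp, the structural protein of the chylomicron and the protein that loads it with lipid, had 2 each. Comparison sites numbered 4 near Mogat2, 1 near Creb3l3 and 5 each near Apob and Mttp. The broadest Mogat2 site, chr7:106363030-106364469, 23.4 kb from the gene start, had widths of 1233, 1088, 1381 and 1440 bp in GF+HFM and of 1216, 707, 1213 and 377 bp in CV+HFM. Here CV+HFM replicates 1 and 3 fell among the GF+HFM values and replicates 2 and 4 below them. The Mogat2 site whose window is printed above measured 422, 451, 651 and 623 bp in GF+HFM and 387, 183, 324 and 152 bp in CV+HFM, so that all 4 CV+HFM values were lower.

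At the Apob start, chr12:7983860-7984703, widths were 596, 644, 703 and 844 bp in GF+HFM and 444, 269, 376 and 119 bp in CV+HFM, with no overlap. At the broader of the Mttp intron sites, chr3:137784159-137785279, they were 854, 756, 948 and 1121 bp in GF+HFM and 844, 370, 799 and 308 bp in CV+HFM, and there the groups overlapped. The Apoa4 start measured 641, 581, 623 and 983 bp in GF+HFM and 731, 396, 597 and 193 bp in CV+HFM, again with overlap. The Apoa4 intron site printed above measured 646, 529, 904 and 805 bp in GF+HFM and 502, 202, 508 and 52 bp in CV+HFM, its last value at the minimum of that list. In all of these CV+HFM replicate 4 was the narrowest, as it was in the whole list.

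Fatty acid genes were reached unevenly. Of 98 genes of fatty acid oxidation 26 (26.5%) were nearest to a shared site, 46 only to a comparison site and 26 to neither, and 41 of 220 sites (18.6%) were shared. The most shared sites, 3 each, were near Acsl1, an acyl-CoA synthetase, Abcd3, a peroxisomal fatty acid transporter, Hadh, a mitochondrial beta-oxidation enzyme, and the regulators Pparg and Ppargc1a. Comparison sites near these numbered 9, 6, 1, 2 and 7. The Ehhadh start measured 1346, 1276, 1348 and 1569 bp in GF+HFM and 1239, 215, 1198 and 192 bp in CV+HFM. Replicates 1 and 3 of CV+HFM came close to the GF+HFM range there and replicates 2 and 4 did not. No base there was common to the widest peaks of all 8 lists. Of 10 genes for fatty acid uptake and binding only Acsl5, another acyl-CoA synthetase, was reached (10.0%, with 2 sites), while 6 others, among them Cd36, Fabp1 and Slc27a4, had comparison sites only.

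Genes of the absorptive surface had counts of the same order. In the microvillus list 10 of 15 genes (66.7%) had a shared site, with 16 of 70 sites shared (22.9%). Eps8, an actin bundler, had 3, and Vil1 (villin), Espn (espin) and Eps8l3 had 2 each, beside 7, 7, 3 and 6 comparison sites. The Vil1 start, chr1:74454706-74456288, measured 1160, 1160, 1346 and 1489 bp in GF+HFM and 1122, 481, 1082 and 379 bp in CV+HFM. In the brush border enzyme list 10 of 17 genes (58.8%) had a shared site, with 14 of 68 sites shared (20.6%). The protease genes Mep1b with 4 and Enpep with 2 led it, beside 4 and 3 comparison sites. Lct (lactase) and Treh (trehalase), digestive disaccharidases, had 1 each, beside 1 and 5 comparison sites. Sis (sucrase-isomaltase) and Dpp4 had 5 and 8 comparison sites and no shared one. Of 20 nutrient transporters 12 (60.0%) had a shared site, with 17 of 74 sites shared (23.0%). In the lead were the amino acid transporter Slc7a7 with 4 and the peptide transporter Slc15a1 and the amino acid transporter Slc6a20a with 2 each. Comparison sites near these numbered 4, 13 and 3. Of 17 tight junction genes 6 (35.3%) had a shared site, but 7 of 72 sites were shared (9.72%), below the share over all genes.

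Regulators were also reached, though by site the transcription factor and nuclear receptor shares lay near the 14.9% over all genes. A list with more sites per gene reaches more of its genes. Of 22 intestinal transcription factors 11 (50.0%) had a shared site (19 of 109 sites, 17.4%). Creb3l3 had 3, beside 1 comparison site, and Vdr, Gata4 and Klf5 were among those with 2, beside 7, 4 and 0. Hnf4a itself had 1 shared and 4 comparison sites. The shared one, chr2:163399923-163401585, measured 1421, 1367, 1541 and 1590 bp in GF+HFM and 1499, 288, 1170 and 114 bp in CV+HFM, and its nearest gene start is that of Ttpal. Cdx2, Hnf4g and Gata6 had comparison sites only. Of 31 nuclear receptors 14 (45.2%) had a shared site (25 of 132 sites, 18.9%), led by Rxra with 4 and Pparg with 3. Ppara and Rara had 2 each. Comparison sites numbered 10 near Rxra, 2 near Pparg, 10 near Ppara and 4 near Rara. Of 17 clock genes 8 (47.1%) had a shared site (16 of 56 sites, 28.6%). Arntl, the Bmal1 gene, Npas2 and Hlf had 3 each and Per2 had 2, beside 5, 9, 1 and 7 comparison sites. The Npas2 site printed above measured 545, 464, 621 and 601 bp in GF+HFM and 619, 356, 427 and 473 bp in CV+HFM, so that the groups overlapped and replicate 4 of CV+HFM was not the narrowest.

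Of the remaining lists, the respiratory chain lay below the 10.0% of all protein-coding genes, the stem cell and secretory lists near it and the antimicrobial list above it. Counting only genes nearest to a site called in all 4 GF+HFM lists, the share over all genes was 28.8%. On that count the respiratory chain had 0 of 16, the stem cell list 2 of 14, the secretory list 2 of 13 and the antimicrobial list 3 of 8. None of 28 respiratory chain genes was nearest to a shared site, although 16 were nearest to comparison sites, 25 sites in all. Among 22 stem cell and crypt genes 2 (9.09%) were, Prom1 with 2 sites and the proliferation gene Mki67 with 1, while 12, among them Lgr5, Olfm4 and Myc, had comparison sites only, and 3 of 46 sites (6.52%) were shared. Of 22 goblet, Paneth and enteroendocrine genes the hormone genes Gip and Sct were (9.09%), with 1 site each of 21 sites in all (9.52% shared). Of 20 antimicrobial and microbe-induced genes 3 (15.0%) were, Nlrp6, an inflammasome sensor, with 3 sites, Pigr, which carries IgA across the epithelium, with 2, and Saa1 with 1, so that 6 of 21 sites (28.6%) were shared. Of that list 12, such as Reg3g, were nearest to no site called in all GF+HFM lists. Comparison sites numbered 2 near Prom1, 1 near Mki67, 0 near Gip and Sct, 1 near Nlrp6, 2 near Pigr and 0 near Saa1. In the marker lists of cell types, shared sites were nearest to 5 of 8 enterocyte markers (Vil1, Apoa4, Alpi, Apoa1 and Lct). Of the others, Sis and Fabp1 had comparison sites only and Fabp2 no site. Shared sites were nearest to 1 of 4 enteroendocrine markers and to 0 of 4 stem cell, 0 of 4 goblet and 0 of 4 Paneth markers. They were nearest to 0 of 6 immune, 0 of 6 stromal and 0 of 4 hepatocyte markers. By site, 7 of 27 were shared at enterocyte and 1 of 3 at enteroendocrine markers. Only 0 of 6 immune and 1 of 4 hepatocyte markers were nearest to any site called in all 4 GF+HFM lists, so those lists could hold few shared sites or none. A nearest gene need not be the gene that a site regulates.

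The list counts also rest on CV+HFM replicate 4. Without it, sites in all 7 other lists were nearest to 19.8% of protein-coding genes. They were nearest to 13 of 15 microvillus genes, 18 of 20 nutrient transporters, 13 of 17 brush border enzymes and 15 of 20 chylomicron and apolipoprotein genes. By site the counts in these lists were 32 of 70, 35 of 74, 26 of 68 and 36 of 66. Of all sites called in all 4 GF+HFM lists, 8375 of 23049 were then in all 7 lists, the share to set beside these counts. Of the fatty acid oxidation genes 48 of 98 were reached (85 of 220 sites) and of the tight junction genes 12 of 17 (24 of 72 sites). By site the brush border, fatty acid oxidation and tight junction counts lay near the share over all sites. Sites in all 7 other lists also reached 7 of 28 respiratory chain, 7 of 22 stem cell and crypt (31.8%) and 5 of 20 antimicrobial genes. These shares lie above 19.8%, but that value counts genes with no site called in all 4 GF+HFM lists. Among genes nearest to such a site, 7 of 16, 7 of 14 and 5 of 8 were reached, against 4433 of 7779 over all genes. By site the counts were 9 of 25, 10 of 46 and 10 of 21, with the stem cell count below the share over all sites. Of the stem cell, goblet, Paneth and enteroendocrine markers 1 of 4 was reached in each list, and 0 of the immune, stromal and hepatocyte markers were.

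**Figure D5:**
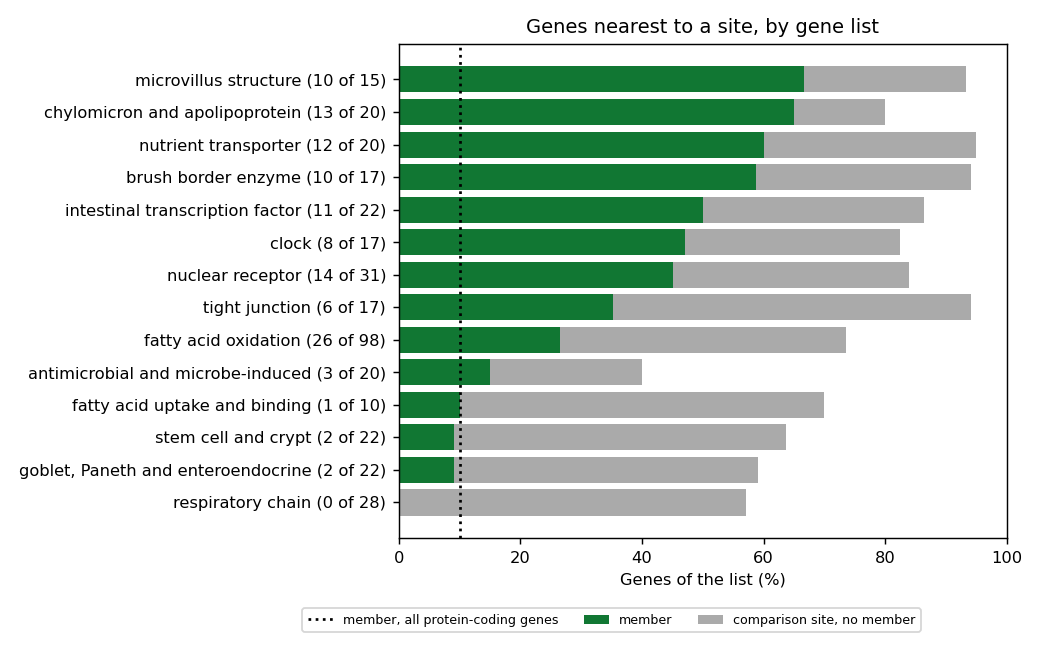
Percent of the genes of each list that were nearest to a shared site (green) or only to a comparison site (grey), with the number reached of the number annotated beside each name and a dotted line at 10.0%, the share of all protein-coding genes nearest to a shared site. Lists of lipid export and of the absorptive surface lie at 58.8% to 66.7%, and the respiratory chain lies at 0.

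The broadest shared sites, like the shared sites as a whole, were mostly distal and mostly without the HNF4 letters at their centre. Sites were ordered by the lowest width percentile they had in any list. Of the first 10, 1 lay at a gene start and 3 lay over 50 kb from one. In the central window 0 of them held CAAAGTCCA and 3 held DR1. Those 3 were the near-identical Dynlt1a and Dynlt1b copies and the site named after Jhdm1d. Of the first 100, 5 held CAAAGTCCA and 11 held DR1. Among the first 100, 17 lay at a gene start and 14 over 50 kb from one. Among all shared sites 13.0% lay at a gene start, 19.4% over 50 kb away, 10.4% held CAAAGTCCA and 12.9% held DR1. At the head was chr10:66382981-66385507, in an untranslated or non-coding exon, with 1110002J07Rik the nearest gene. The nearest gene start, 174.6 kb away, is that of Jmjd1c, a histone demethylase gene. The site measured 1875, 1701, 2527 and 2457 bp in GF+HFM and 1964, 567, 1761 and 557 bp in CV+HFM. These widths were at or above the 99.5th percentile of every list. Next was chr4:148211529-148213202, in an intron of the zinc finger gene Casz1, at 1560, 1278, 1579 and 1632 bp in GF+HFM and 1296, 526, 783 and 465 bp in CV+HFM. CV+HFM replicate 1 reached the GF+HFM range at both.

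The others, named by their nearest gene start, were the sites of Tiam2, Rnf152, Dynlt1a, Dynlt1b, Acsl5, Gnb1, Jhdm1d and Grb7. That start was far at Rnf152 (177 kb), Tiam2 (80.7 kb) and Jhdm1d (36.9 kb). The nearest gene was Scaf8 at the Tiam2 site and U6 at the Jhdm1d site. The Acsl5 site, chr19:55321782-55323130, lay 5.41 kb from the gene start and measured 935, 1080, 1172 and 1349 bp in GF+HFM and 980, 613, 871 and 446 bp in CV+HFM. The Grb7 site, chr11:98307079-98308433, lay 50 bp from the start of this adaptor gene and measured 1333, 786, 1329 and 1308 bp in GF+HFM and 805, 522, 739 and 450 bp in CV+HFM. The Dynlt1a copy measured 1047, 1084, 1506 and 1395 bp in GF+HFM and 1168, 764, 985 and 400 bp in CV+HFM. The Dynlt1b copy measured 1026, 939, 1305 and 1360 bp and 907, 666, 824 and 613 bp. At the Gnb1 site no base was common to the widest peaks of all 8 lists, as at 335 of the 3445 shared sites (9.72%).

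The broadest sites called by all GF+HFM lists and by no CV+HFM list were far lower in their lists. The site near Krt15, chr11:100001435-100002699, measured 620, 393, 703 and 839 bp in GF+HFM, at percentiles of 73.0 to 89.6. Those near Zcchc6 and Ppp3r1 measured 532, 502, 550 and 677 bp and 402, 389, 540 and 761 bp.

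Relative width was then tested site by site, by ranking widths within each library and fitting limma to normal scores of the ranks, which sets aside the overall width of a list. Of 3445 shared sites 4 passed an adjusted p of 0.05 (0.116%), all lower in CV+HFM, and 398 had an unadjusted p under 0.05, of which 206 were lower in CV+HFM. At the start of Cltc, the clathrin heavy chain gene, chr11:86569657-86572061, widths were 2204, 1628, 2352 and 1729 bp in GF+HFM and 830, 199, 335 and 52 bp in CV+HFM. The difference in mean normal score, CV+HFM minus GF+HFM, was -3.15 (limma adjusted p = 0.0228). In an intron at Degs2, a sphingolipid enzyme gene, chr12:109931749-109933816, they were 955, 784, 1281 and 1603 bp and 394, 119, 275 and 96 bp (score -2.55, limma adjusted p = 0.0218).

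At chr9:60981489-60982785, between genes, widths were 1012, 914, 1099 and 1291 bp in GF+HFM and 520, 156, 289 and 54 bp in CV+HFM (score -2.24, limma adjusted p = 0.0228). In an intron of Shb, an adaptor protein gene, chr4:45465385-45466848, they were 1092, 957, 1464 and 1439 bp and 495, 209, 361 and 107 bp (score -1.88, limma adjusted p = 0.0344). The groups did not overlap at any of the 4. The count rested on single libraries. Leaving out GF+HFM replicate 1, 3 or 4, or CV+HFM replicate 2 or 3, limma called 0 sites, with 254 to 471 at an unadjusted p under 0.05. The count was 14 when GF+HFM replicate 2 was left out and 21 when CV+HFM replicate 1 was. With CV+HFM replicate 4 left out it was 5 of 8375 sites, 1 of them among the 4. On log2 width it was 0, with 336 at an unadjusted p under 0.05. That separate mice were used is taken from the study, and each p covers the spread between these libraries only.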

How the data were processed

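HNF4A ChIP-seq of jejunal IECs was analysed for 4 GF+HFM and 4 CV+HFM mice, grouped by their labels. The other conditions and assays were not analysed here. The authors sequenced 50-base single-end reads, mapped them to mm9 with Bowtie2 and called peaks per mouse with MACS2 2.1.1.20160309 against input, at a false discovery rate of 0.05 and a bandwidth of 300 bp. The deposited lists give positions in bp and no score, count or signal, so width stood in for strength. Lists from shallower or less enriched libraries can be shorter.

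Sites were merged with 1 bp of overlap. Site centres were medians of GF+HFM peak midpoints. Genes follow GENCODE M1 on NCBIM37, and bedtools 2.31.1 gave the nearest gene, the first at ties. Of 363 listed gene symbols 362 matched. Wilson and Newcombe 95% intervals cover counting only. Libraries were compared by exact permutation with scipy 1.17.1, and width ranks with limma 3.58.1 (Benjamini-Hochberg), checked on simulated data. Named sites were the 10 highest and 3 comparison sites by minimum width percentile, genes with the most shared sites overall and in each list, and limma calls. Members and lists were chosen with earlier results of these data known. Alternatives covered lists, overlap, windows, width, motifs and gene assignment.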

Additional observations from a re-analysis of the deposited data

Results flagged for a closer look

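Over 41 groups of 4 libraries examined, 1 held a value set apart from the other 3 by more than the limit for its group (Dixon's criterion for 4 values), and chance gives about 1 such group in 20. At the shared site at the Grb7 start the width in GF+HFM replicate 2 was 786 bp, where the other GF+HFM libraries reached up to 1333 bp. CV+HFM replicate 1, at 805 bp, lay above that value.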

How the results depend on the processing

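With 1 library left out in turn, the number of shared sites ran from 3444 to 8375 and their protein-coding genes from 2236 to 4433, each highest without CV+HFM replicate 4. The gene-start difference between shared and comparison sites ran from 0.366 to 2.29 points, called minus missed in CV+HFM from -0.848 to 0.713 points (changing sign without GF+HFM replicate 3 or 4 or CV+HFM replicate 2 or 4), whole lists from -1.16 to -0.165 points, the HNF4 motif difference from 2.15 to 4.65 points, the width difference from -413 to -244 bp and the limma calls from 0 to 21. Without both short CV+HFM lists, chosen after seeing the data, there were 17316 sites and 6682 genes, with differences of -1.35 points at gene starts and 1.01 points for the motif. Requiring 50% of a site to be covered left 20 sites and 16 genes, with differences of 2.25 and 23.6 points. Peaks of at least 200 bp left 848 sites and 671 genes, and a motif difference of 5.65 points.

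Gene-start differences were 3.68 points at 5 kb and -0.817 points in the widest quartile, and 4.83, -1.60 and -0.812 points in quartiles 1 to 3. Whole lists gave 0.284 points at 5 kb (exact permutation p = 0.714), and called minus missed gave -2.65 points in the widest quartile (exact permutation p = 0.5). The motif difference was 2.62 points in 100 bp, 6.08 in 400 bp, 7.25 at 1 mismatch, and 38.2, 19.6 and 8.39 points in quartiles 1 to 3. Without CV+HFM replicate 4 those quartiles gave 5.77, 5.16 and 3.05 points. On log2 width limma called 0 sites. The cause of these shifts was not tested. Replicate numbers did not pair the libraries: deviations of width rank correlated at 0.053, 0.075, -0.078 and 0.138, and 1 of 4 GF+HFM libraries correlated best with its own number. With the replicate block limma called 4 sites, 3 of them the same and Shb lost (adjusted p = 0.0525), the width difference stayed -343 bp (exact permutation p of 2 in 16, the smallest possible) and the list difference -0.744 points (exact p = 0.375). No block applies within a library.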
